A study of Mus musculus with 15 samples.

Results

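The 34 genes described here are genes of the interferon response, with 4 guanylate-binding protein (GBP) genes among them, and they were taken by symbol from a count table of 25239 mouse genes. All 34 were found in the table. Of these, 32 passed the filter on low counts that set the 17835 genes tested, and Mx2 and Cxcl10 did not. By role they are 4 transcription factors, 3 sensors of RNA or other nucleic acid, 15 antiviral effectors, 6 genes of ISG15, ubiquitin or ADP-ribose modification, 4 GBP genes, and the peptide transporter Tap1 with the chemokine Cxcl10.

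Interferons are secreted proteins that cells release on infection. Type I interferon acts through the receptor chains Ifnar1 and Ifnar2 and the kinases Jak1 and Tyk2, which lead to a complex that holds Stat2 and Irf9. That complex binds a DNA element called ISRE in the promoters of antiviral genes. Interferon gamma acts through Ifngr1, Ifngr2, Jak1 and Jak2 and activates genes that carry another element, GAS. GBPs are large GTPases, induced most strongly by interferon gamma, that assemble on the vacuoles of intracellular microbes. IL-17 signals through a different receptor and is known mainly for acting on NF-kB, C/EBP factors and mRNA stability.

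The study used RNA immunoprecipitation with sequencing (RIP-seq) in ST2, a mouse stromal cell line from bone marrow, to find transcripts bound by Arid5a, an RNA-binding protein of inflammatory signalling. Cells received IL-17 at 200 ng/mL for 3 h, or medium alone. They were then crosslinked in 1% formaldehyde, and their lysates were precipitated with an antibody to Arid5a or with mouse IgG2b. This gave 4 libraries of Arid5a RIP after IL-17, 4 of Arid5a RIP in medium, 3 of IgG RIP after IL-17 (replicates 2, 3 and 4) and 4 of IgG RIP in medium. All libraries come from this 1 line, the labels name no genetic change, and no library of unprecipitated RNA was analysed here, so that a change in the amount of an RNA in the cells and a change in its precipitation cannot be told apart, nor can fewer cells expressing a gene and less RNA per cell. The labels do not say whether replicates were separate cultures, so p-values measure only the spread between these libraries.

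Libraries held 939139 to 5713913 counts, the lowest being IgG medium 2. The stromal identity of the cells was checked with 11 markers, of which 9 had a mean FPKM (fragments scaled to gene length and library size, a level per length) above the 99th percentile of 1492 olfactory and vomeronasal receptor genes, a class that sensory neurons use and stromal cells are not known to express. None of 10 macrophage and dendritic cell, 8 lymphocyte, 4 endothelial or 4 epithelial markers did. The receptor genes summed to 2239 ± 1227 CPM (counts scaled to library size; SD, n = 4) in Arid5a IL-17 libraries, where replicate 4 held 4062 and the others 1408 to 1806. They summed to 3852 ± 730 in Arid5a medium (n = 4), 3001 ± 540 in IgG IL-17 (n = 3) and 2310 ± 526 in IgG medium libraries (n = 4). They serve below as a measure of counts on silent genes.

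Most of the interferon-response genes were low. Over all 15 libraries, 6 had a mean FPKM above the 99th percentile of the silent receptor genes (8.67 FPKM), 1 more (Dtx3l) was above the 95th (5.54 FPKM), and 27 were at or below it. Samhd1, a dNTP hydrolase that restricts retroviruses, was highest at 55.4 FPKM. Isg15, a ubiquitin-like modifier, followed at 24.9, then Bst2 (tetherin, which holds budding virions to the cell) at 18.1, Ifit2 (a binder of foreign RNA) at 11.6, the transcription factor Irf1 at 9.63 and Ifi35 at 9.27 FPKM. The GBP genes were near the median silent gene (1.87 FPKM), with Gbp2 at 2.05, Gbp3 at 1.75, Gbp7 at 1.47 and Gbp5 at 0.762 FPKM. Cxcl10, a chemokine for T cells that is strongly induced by interferon, was lowest at 0.364 FPKM, and had 0 counts in 8 libraries and at most 5 in any.

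**Figure D1:**
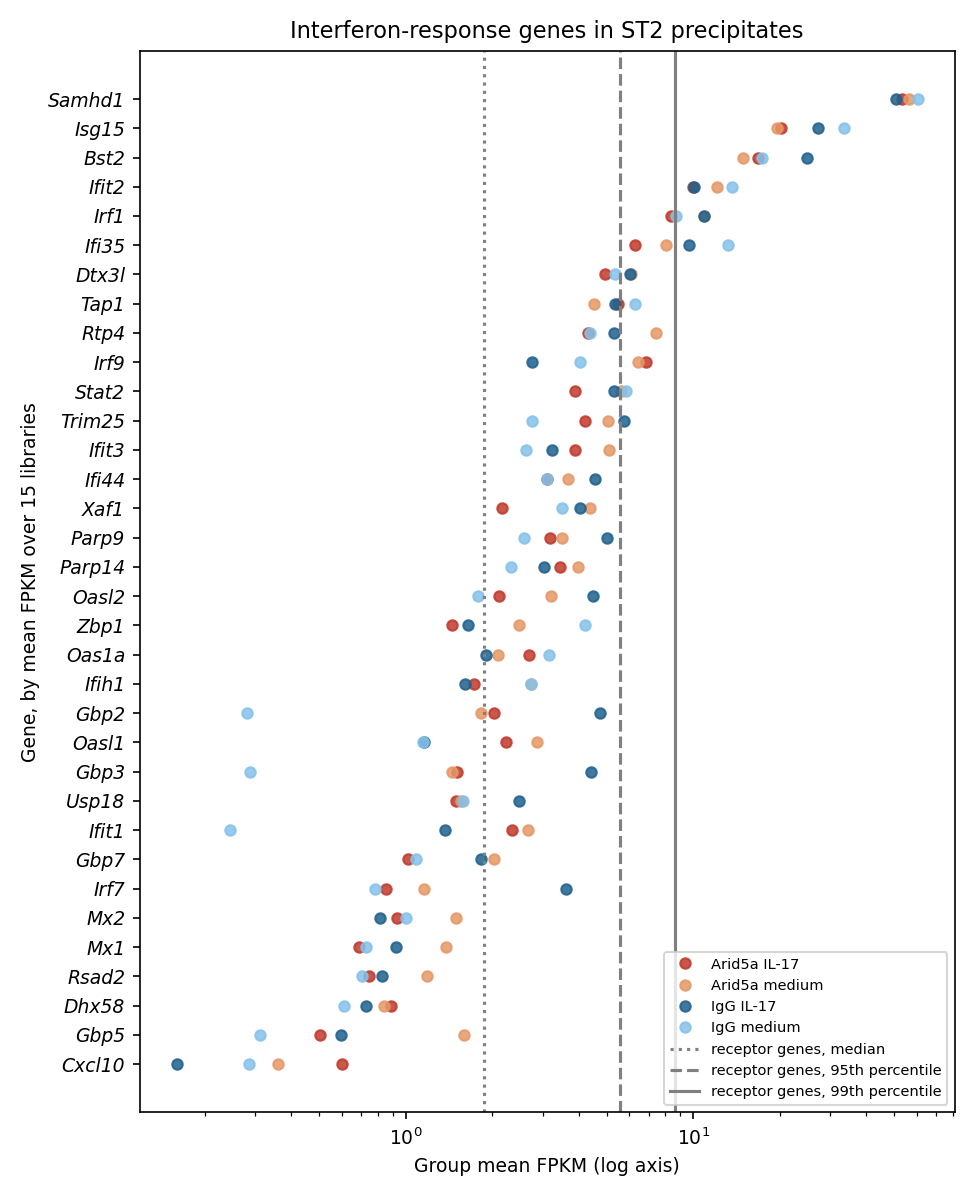
Mean FPKM of each of the 34 genes (log axis) in the 4 groups, ordered by the mean over 15 libraries; vertical lines mark the median, 95th and 99th percentile of the mean FPKM of 1492 olfactory and vomeronasal receptor genes. Samhd1 stands apart at the top and 27 genes lie at or below the 95th percentile in their overall mean, while Gbp2, Gbp3 and Ifit1 in IgG medium lie far left of their other groups.

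Among the transcription factors, Irf9 (5.17 FPKM) and Stat2 (5.16 FPKM), the DNA-binding and activating partners of the type I complex, were close to the 95th percentile of silent genes, and Irf7, the amplifier of type I interferon genes, was at 1.47 FPKM. The nucleic acid sensors Zbp1, Ifih1 (MDA5) and Dhx58 (LGP2) stood at 2.5, 2.24 and 0.770 FPKM. The remaining antiviral effectors included Rtp4 at 5.37 FPKM, Ifit3 at 3.73, Ifi44 at 3.55, Xaf1 at 3.48, Oasl2 at 2.78, Oas1a at 2.5, Oasl1 at 1.90, Ifit1 at 1.68 and Rsad2 (viperin) at 0.870 FPKM. Mx1 and Mx2, antiviral GTPases, stood at 0.932 and 1.08 FPKM and are annotated as transcribed pseudogenes in the GRCm38.p6 assembly. In the modifier group, Trim25, a ubiquitin ligase, had 4.35 FPKM, Parp9 3.47, Parp14 3.19 and the ISG15 protease Usp18 1.73 FPKM. Tap1, which carries peptides to class I molecules, had 5.39 FPKM.

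Some of these genes share positions or reads with others. The deposited counts were not whole in at least 1 library for 9 of the 34 genes, most often for Stat2 (14 libraries), Dtx3l and Parp9 (13 each), Ifit3 and Oas1a (12 each) and Ifit1 (8). Dtx3l and Parp9 overlap each other, Stat2 overlaps Apof, Rtp4 overlaps Masp1, Ifit1 overlaps Ifit1bl1, Gbp2 overlaps Mir6381 and Cxcl10 overlaps Art3 in the annotation. The GBP genes are paralogs, and Gbp3 and Gbp7 each had a count that was not whole in 1 library.

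The 4 GBP genes lie in 1 stretch of chromosome 3 of GRCm38.p6 (mm10), with Gbp2b between Gbp3 and Gbp2. Gbp5 is at chr3:142496934-142522344, Gbp7 at chr3:142530336-142550151, Gbp3 at chr3:142560016-142573213 and Gbp2 at chr3:142620663-142638008. Their RefSeq promoters (250 bases before to 50 after the start) are shown because Gbp2 and Gbp3 were the only genes of the 34 called by the main test. All are on the plus strand, at chr3:142620413-142620712 (Gbp2), chr3:142559794-142560093 (the first of 2 starts of Gbp3), chr3:142530086-142530385 (Gbp7) and chr3:142496684-142496983 (Gbp5). Capitals mark matches on either strand to an ISRE core (GAAA, any 2 bases, GAAA), a GAS element (TTC, any 3 bases, GAA) or a kappaB site (GGG, any 2 bases, TTTCC).

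Gbp2: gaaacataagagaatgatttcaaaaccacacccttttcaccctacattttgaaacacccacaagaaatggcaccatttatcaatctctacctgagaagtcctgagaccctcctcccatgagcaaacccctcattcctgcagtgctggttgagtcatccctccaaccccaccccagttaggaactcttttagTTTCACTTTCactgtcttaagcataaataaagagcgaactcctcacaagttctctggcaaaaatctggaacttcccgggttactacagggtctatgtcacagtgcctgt
Gbp3: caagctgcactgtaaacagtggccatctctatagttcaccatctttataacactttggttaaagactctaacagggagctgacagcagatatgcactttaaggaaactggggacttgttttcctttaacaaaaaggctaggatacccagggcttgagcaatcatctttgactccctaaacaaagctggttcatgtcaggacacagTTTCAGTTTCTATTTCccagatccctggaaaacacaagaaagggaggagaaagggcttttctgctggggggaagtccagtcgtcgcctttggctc
Gbp7: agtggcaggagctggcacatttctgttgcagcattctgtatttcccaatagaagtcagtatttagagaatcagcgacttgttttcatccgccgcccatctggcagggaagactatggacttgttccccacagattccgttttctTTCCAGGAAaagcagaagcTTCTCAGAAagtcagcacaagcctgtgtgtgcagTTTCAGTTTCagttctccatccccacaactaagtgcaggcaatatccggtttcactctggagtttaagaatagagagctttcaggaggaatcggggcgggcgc
Gbp5: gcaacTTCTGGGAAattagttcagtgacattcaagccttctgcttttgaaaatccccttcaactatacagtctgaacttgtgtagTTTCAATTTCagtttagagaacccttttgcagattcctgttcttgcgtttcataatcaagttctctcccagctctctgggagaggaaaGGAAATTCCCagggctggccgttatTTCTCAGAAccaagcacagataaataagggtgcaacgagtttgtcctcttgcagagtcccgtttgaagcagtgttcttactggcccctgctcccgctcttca

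Each of these promoters held an ISRE core, which began 59 bases before the start in Gbp2, 53 in Gbp7 and 165 in Gbp5, and at 45 and 39 bases in Gbp3, where the matches share bases. Gbp7 and Gbp5 also held 2 GAS matches each, at 106 and 87 bases in Gbp7 and at 245 and 52 bases in Gbp5. Gbp5 alone among the genes with a promoter here held a kappaB match, 77 bases before its start. Of the 34 genes, 26 had 30 promoters in the RefSeq table, and 43.3% of those promoters held an ISRE core, against 3.44% of all 32851 promoters in the table. GAS matches were in 26.7% against 8.3%, and kappaB matches in 3.33% against 1.63%. These are matches of letters, not measured sites. Rtp4, Parp9, Parp14, Zbp1, Usp18, Mx1, Mx2 and Dhx58 were not among the 26.

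The comparison of IL-17 with medium in the IgG RIP reads the treatment in RNA recovered without the Arid5a antibody. Gbp2 and Gbp3 were higher with IL-17 there, and no other of the 32 genes was called. Called means an adjusted p below 0.05 in edgeR's quasi-likelihood test with Benjamini-Hochberg adjustment over all genes tested. The 2 calls among 32 genes stand beside 0.493% of all genes called in either direction (0.258% higher), and 2 of 697 silent receptor genes were also called higher.

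Gbp2 had 34, 15 and 42 counts in IgG IL-17 libraries 2, 3 and 4, against 1, 0, 4 and 3 counts in IgG medium libraries 1 to 4. In TMM-scaled CPM these were 7.28, 5.25 and 20.1 with IL-17, against 0.221, 0, 1.45 and 0.961 in medium. The groups did not overlap, and IgG IL-17 4 was the highest. The log2 fold was 3.82 ± 0.78 (SE, edgeR adjusted p = 0.0109), from means of 10.9 ± 8.05 CPM with IL-17 and 0.657 ± 0.667 CPM in medium (SD, n = 3 and 4). Without IgG IL-17 4 the log2 fold was 3.09, with an adjusted p of 0.113 by edgeR.

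Gbp3 had 91, 9 and 21 counts in the IgG IL-17 libraries, against 7, 0, 3.97 and 0 in IgG medium. As CPM these were 19.5, 3.15 and 10.1, against 1.55, 0, 1.45 and 0. The groups did not overlap here either, but a different library, IgG IL-17 2, was the highest. The log2 fold was 3.57 ± 0.82 (edgeR adjusted p = 0.0310). Without IgG IL-17 2 it was 2.83, with an adjusted p of 0.210 by edgeR, and the adjusted p was also above the threshold without IgG medium 3 (0.0714) and without IgG medium 4 (0.0775).

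The other GBP genes were not called in this comparison. Gbp7 had 10.1, 9.46 and 10.1 CPM with IL-17, against 7.06, 3.37, 3.25 and 9.93 in medium, so that the groups overlapped, with a log2 fold of 0.67 ± 0.51 (edgeR adjusted p = 0.678). Gbp5 had 1.71, 1.40 and 1.91 CPM with IL-17, against 0.221, 0, 2.89 and 0.641 in medium, and a log2 fold of 0.70 ± 1.05. The 4 genes together summed to 33.3 ± 12.3 CPM in IgG IL-17 and 8.24 ± 3.46 CPM in IgG medium libraries (SD, n = 3 and 4), a description with no test. Counts on silent genes were also higher in IgG IL-17 (3001 ± 540 CPM) than in IgG medium (2310 ± 526 CPM). The silent-gene CPM was also used as a covariate, computed there on library totals without the TMM factors of these sums. With it Gbp2 kept a log2 fold of 3.86 (edgeR adjusted p = 0.0101) and Gbp3 had 3.42 (adjusted p = 0.0700). Macrophage and dendritic cell markers summed to 14.8 to 18.4 CPM in IgG IL-17 libraries and 19.9 to 30.5 CPM in IgG medium libraries, with Cd14 the highest of the 10 at a mean of 5.81 CPM and none at 0 throughout.

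**Figure D2:**
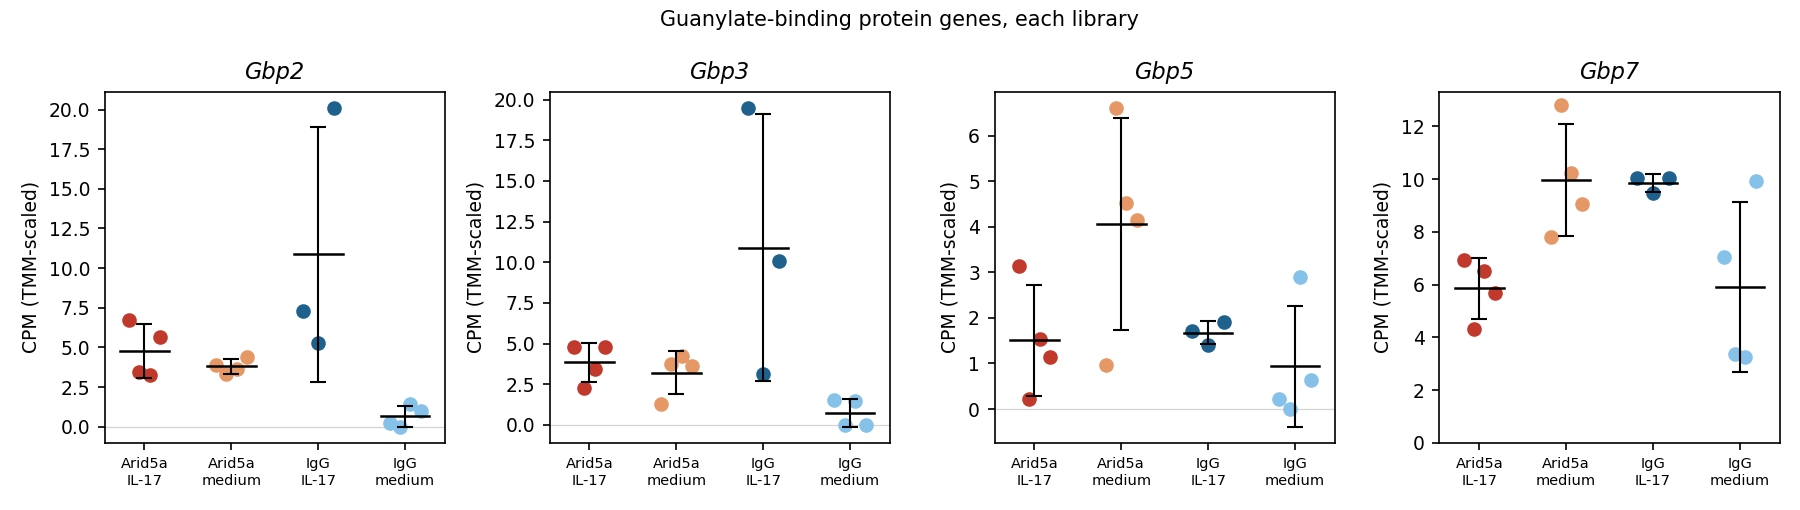
TMM-scaled CPM of Gbp2, Gbp3, Gbp5 and Gbp7 in each library of the 4 groups; points are libraries, and bars are the mean ± SD. For Gbp2 and Gbp3 the 3 IgG IL-17 libraries lie above all 4 IgG medium libraries and differ widely among themselves, while the 2 Arid5a groups overlap.

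Trim25, which ubiquitinates the RNA sensor RIG-I, had 31.3, 25.2 and 35.9 CPM in IgG IL-17, against 19.4, 5.62, 21.7 and 14.4 in IgG medium. Its groups did not overlap, but its log2 fold of 0.92 ± 0.32 was not called (edgeR adjusted p = 0.212). Ifit2 ran the other way without overlap, with 42.4, 37.1 and 32.5 CPM in IgG IL-17, against 60.3, 44.9, 47.7 and 55.4 in IgG medium, and a log2 fold of -0.48 ± 0.22 (edgeR adjusted p = 0.398). Irf7 had 4.92, 9.46 and 1.91 CPM with IL-17, against 1.99, 0, 2.89 and 0.320 in medium. In all, 3 of the 32 genes lay wholly higher with IL-17 and 1 wholly lower, where 4.27% and 3.32% of all genes did so. The median log2 fold was 0.17 over the 32 genes and 0.0032 over all genes, and -0.037 over the 5394 well-expressed genes (average log2 CPM of at least 5). The silent receptor genes had a median of 0.33, above that of the 32 genes.

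The comparison of IL-17 with medium in the Arid5a RIP asked which RNAs changed in the precipitate of the Arid5a antibody, and none of the 32 genes was called. In this comparison 5.65% of all genes tested were called, most of them higher. By edgeR's test none of the 32 had an unadjusted p under 0.05 either, where 22.3% of all genes did, and the lowest was 0.0818, with an adjusted p of 0.284. DESeq2 called 0, where it called 7.66% of all genes, and gave no adjusted p to 4 of them. Limma voom called Mx1 and Xaf1 lower, where it called 41.7% of all genes. The log2 folds ran from -1.39 for Gbp5 to 0.48 for Oas1a, with a median of -0.082. All genes had a median of -0.12 and the well-expressed genes one of 0.30. The silent receptor genes had a median of -0.85.

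Gbp2 had 6.71, 3.42, 3.26 and 5.66 CPM in Arid5a IL-17 libraries 1 to 4, against 3.91, 3.30, 3.61 and 4.40 in Arid5a medium, and the groups overlapped (log2 fold 0.31 ± 0.62, edgeR adjusted p = 0.785). Gbp3 had 4.82, 2.28, 3.45 and 4.81 CPM with IL-17, against 1.3, 3.72, 4.22 and 3.63 in medium, with a log2 fold of 0.25 ± 0.68. Both genes therefore had overlapping values with and without IL-17 in the precipitate of the Arid5a antibody. Gbp7 had 6.92, 4.33, 6.51 and 5.66 CPM with IL-17, against 7.82, 12.8, 10.2 and 9.06 in medium. It was the 1 gene of the 32 whose groups did not overlap, where 20.0% of all genes had non-overlapping groups, and its log2 fold was -0.76 ± 0.47 (edgeR adjusted p = 0.330). Gbp5 had 3.15, 0.228, 1.53 and 1.13 CPM with IL-17, against 0.977, 6.61, 4.52 and 4.14 in medium.

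The more abundant genes also overlapped between treatments in the Arid5a RIP. Samhd1 had 227, 207, 189 and 152 CPM with IL-17, against 197, 175, 170 and 168 in medium, a log2 fold of 0.13 ± 0.15. Isg15 had 11.1, 10.9, 8.04 and 11.6 CPM with IL-17, against 10.8, 7.85, 9.64 and 12.4 in medium. Ifit2 had 42.8, 37.6, 37.7 and 39.6 CPM with IL-17, against 36.5, 38.8, 45.2 and 45.8 in medium. Irf1, a direct target of several inflammatory pathways, had 14.9, 17.6, 22.2 and 13.0 CPM with IL-17, against 14, 16.1, 23.5 and 22.8 in medium, with a log2 fold of -0.18 ± 0.33. Xaf1, a pro-apoptotic effector, had 4.82, 6.61, 4.40 and 5.10 CPM with IL-17, against 6.19, 9.50, 11.1 and 10.1 in medium, and had the lowest p of the 32 genes without being called (log2 fold -0.82 ± 0.46). The 3 sensors had log2 folds of -0.82 (Zbp1), -0.44 (Ifih1) and 0.26 (Dhx58), and the 6 modifier genes stayed between -0.085 and 0.067.

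**Figure D3:**
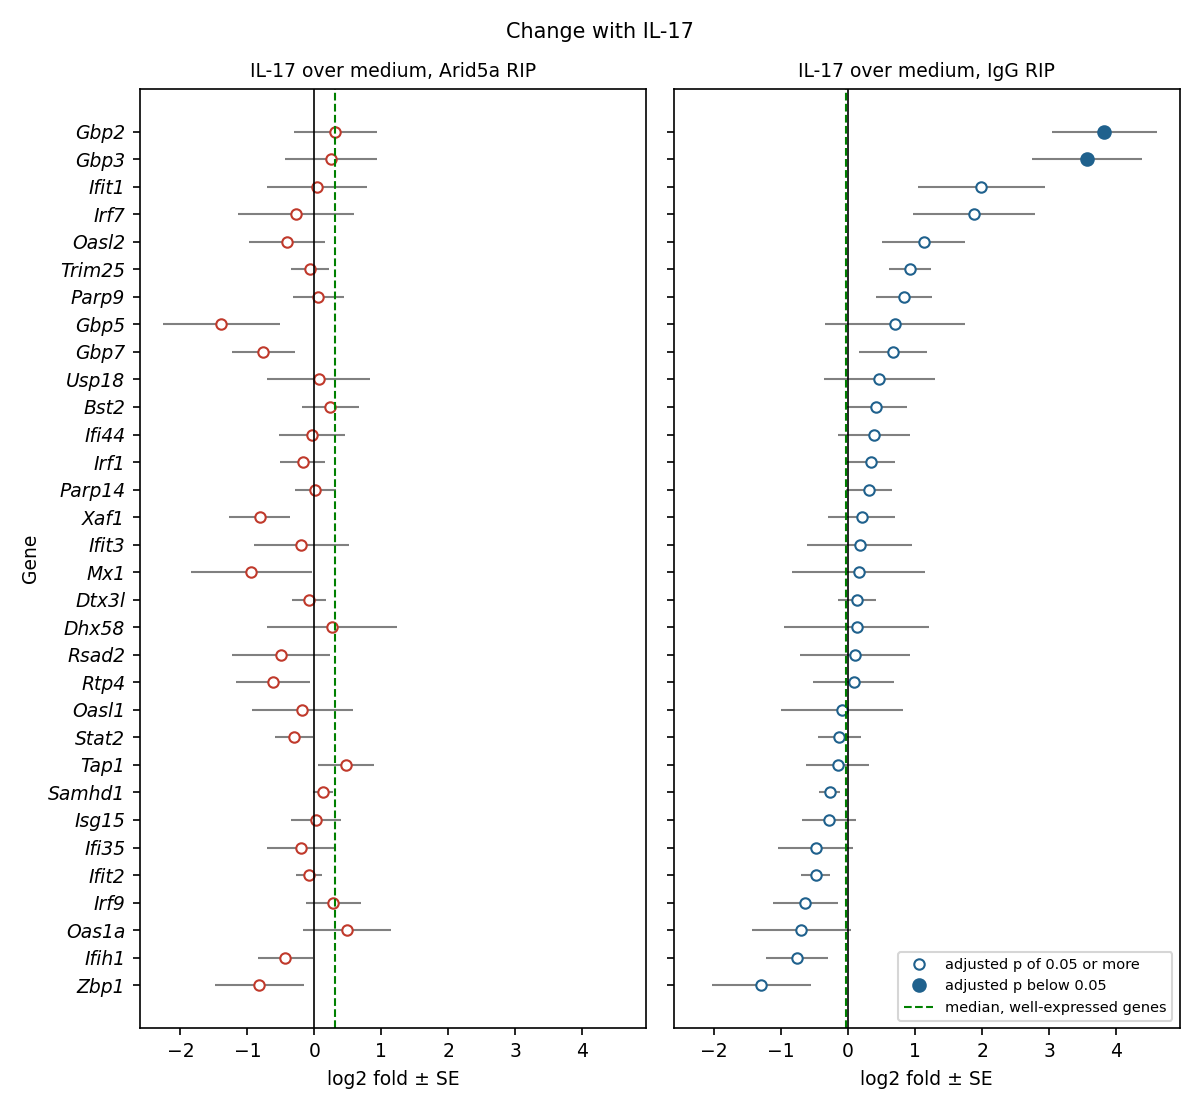
Log2 fold of IL-17 over medium ± SE for the 32 genes tested, in the Arid5a RIP (left) and the IgG RIP (right), with genes in the order of the IgG RIP; filled points have an adjusted p below 0.05 and dashed lines mark the median of well-expressed genes. Gbp2 and Gbp3 are the only filled points, at 3.82 and 3.57 in the IgG RIP, and no point is filled in the Arid5a RIP.

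The comparison of Arid5a with IgG after IL-17 asked which transcripts the antibody enriched in stimulated cells. None of the 32 genes was called by edgeR, DESeq2 or limma voom, where edgeR called 0.0673%, DESeq2 0.398% and voom 2.69% of all genes. DESeq2 gave no adjusted p to 10 of the 32. At an unadjusted p under 0.05 by edgeR, Irf9 was above IgG and Irf7 and Gbp3 were below it, where 4.74% of all genes were above and 4.21% below. Irf9 had 16.6, 19.1, 11.5 and 17.8 CPM in the Arid5a RIP, against 8.99, 3.50 and 5.74 in the IgG RIP. Its groups did not overlap, and its log2 fold of 1.38 ± 0.48 had an adjusted p of 0.380 by edgeR. Irf7 had 0.629, 1.60, 1.53 and 1.70 CPM in the Arid5a RIP, against 4.92, 9.46 and 1.91 in the IgG RIP, with a log2 fold of -1.98 ± 0.89 (edgeR adjusted p = 0.496) and 3 to 8 counts in each Arid5a library.

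Groups did not overlap for 6 of the 32 genes with IL-17, 1 higher in the Arid5a RIP (Irf9) and 5 lower (Irf7, Stat2, Bst2, Xaf1 and Gbp7), where 5.30% of all genes were wholly higher and 4.39% wholly lower. Stat2 had 18.9, 17.8, 15.3 and 18.7 CPM in the Arid5a RIP, against 23.8, 19.3 and 24.9 in the IgG RIP. Bst2 had 10.1, 11.17, 8.42 and 9.06 CPM in the Arid5a RIP, against 16.7, 11.21 and 17.2 in the IgG RIP. Gbp2 had means of 4.76 ± 1.70 CPM in the Arid5a RIP and 10.9 ± 8.05 in the IgG RIP (SD, n = 4 and 3), and its groups overlapped. The 32 genes had a median log2 fold of -0.27, against -0.010 for all genes, 0.15 for well-expressed genes and -0.47 for the silent receptor genes. The part of counts on silent genes in these values was not tested.

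In medium, the comparison of Arid5a with IgG again called none of the 32 genes by edgeR, DESeq2 or limma voom, where edgeR called 0.628% of all genes and mostly lower ones, DESeq2 1.95% and voom 0.852%. DESeq2 gave no adjusted p to 30 of the 32. At an unadjusted p under 0.05 by edgeR, 5 were above IgG (Ifit1, Gbp2, Gbp3, Gbp5 and Trim25) and 2 below it (Isg15 and Samhd1), where 4.50% of all genes were above and 8.28% below. Ifit1, which binds viral RNA that lacks full cap methylation, had 3.58, 5.78, 8.73 and 5.44 CPM in the Arid5a RIP, against 2.43, 0, 0 and 0 in the IgG RIP. The groups did not overlap, and the log2 fold was 2.80 ± 0.90 (edgeR adjusted p = 0.153). Without IgG medium 1, which left 3 IgG libraries at 0 counts, Ifit1 was called by edgeR (adjusted p = 0.00929), where 1.98% of all genes were called. For IL-17 against medium in the IgG RIP, where Ifit1 had 4.71, 4.90 and 0 CPM with IL-17, it was also called higher without that library (edgeR adjusted p = 0.0421). In that fit 1.45% of all genes were called. Gbp2 had 3.91, 3.30, 3.61 and 4.40 CPM in the Arid5a RIP, all above the IgG values of 0.221, 0, 1.45 and 0.961, with a log2 fold of 2.34 ± 0.76 (edgeR adjusted p = 0.157). Gbp3 averaged 3.21 ± 1.3 CPM in the Arid5a RIP and 0.747 ± 0.864 in the IgG RIP, and Gbp5 4.06 ± 2.33 and 0.938 ± 1.33 CPM (SD, n = 4 each), both with overlapping groups.

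Isg15 and Samhd1 lay wholly below IgG in medium. Isg15 had 10.8, 7.85, 9.64 and 12.4 CPM in the Arid5a RIP, against 17, 30.3, 14.1 and 14.4 in the IgG RIP, with a log2 fold of -0.84 ± 0.38 (edgeR adjusted p = 0.342). Samhd1 had 197, 175, 170 and 168 CPM in the Arid5a RIP, against 214, 254, 202 and 208 in the IgG RIP, with a log2 fold of -0.30 ± 0.15 (edgeR adjusted p = 0.383). Thus 2 genes were wholly higher and 2 wholly lower, where 5.00% and 4.05% of all genes were. Well-expressed genes had a median log2 fold of -0.19, the 32 genes one of 0.21, all genes one of 0.042 and the silent receptor genes one of 0.74. Counts on silent genes stood at 3852 ± 730 CPM in Arid5a medium and 2310 ± 526 CPM in IgG medium libraries, and their part in these values was not tested.

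**Figure D4:**
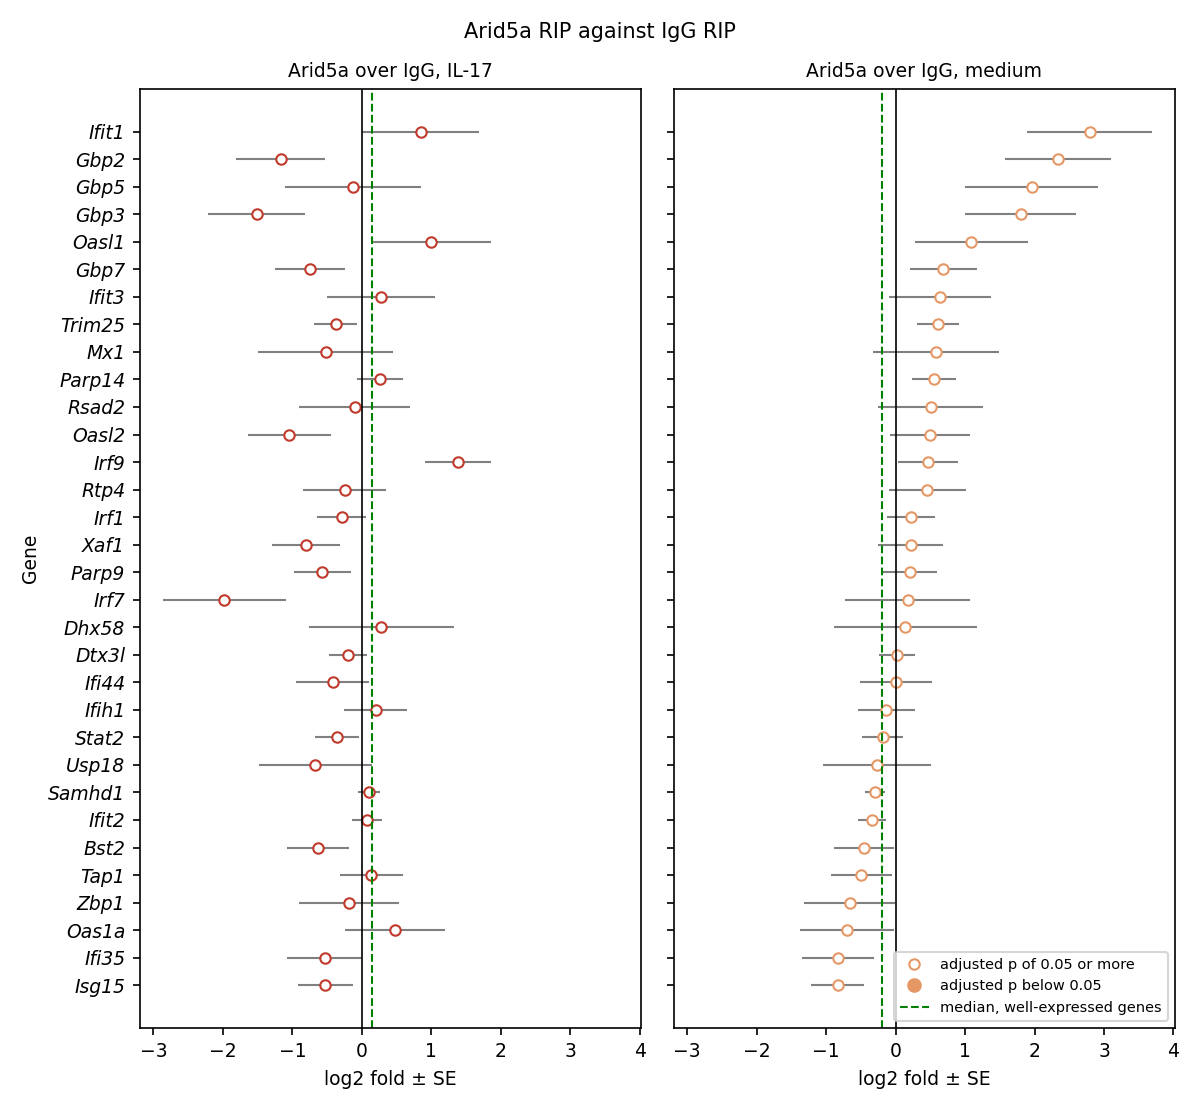
Log2 fold of the Arid5a RIP over the IgG RIP ± SE for the 32 genes tested, with IL-17 (left) and in medium (right), with genes in the order of the comparison in medium; dashed lines mark the median of well-expressed genes, and no point is filled because none had an adjusted p below 0.05. Ifit1 and Gbp2 have the highest folds in medium (2.80 and 2.34), and Irf9 the highest with IL-17 (1.38).

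The difference between the Arid5a enrichment with IL-17 and that in medium was tested as the interaction of antibody and treatment. None of the 32 genes was called by edgeR, where 0.976% of all genes were (0.107% lower). Gbp2 came closest at -3.51 ± 1.00 on the log2 scale (edgeR adjusted p = 0.0704), followed by Gbp3 at -3.32 ± 1.07 (adjusted p = 0.109). Both were called lower by DESeq2 (adjusted p = 0.0167 for Gbp2 and 0.0440 for Gbp3) and by limma voom (0.0373 and 0.0484). Beside these 2 calls of 32, DESeq2 called 2.27% and voom 9.27% of all genes for this difference. Gbp7 (-1.43) and Trim25 (-0.99) were the other genes with an unadjusted p under 0.05 by edgeR, both lower, so that 4 of the 32 were lower at that level, where 6.77% of all genes were. The 4 groups enter several of these comparisons, so the low Gbp2 and Gbp3 counts in IgG medium libraries bear on the IL-17 effect in the IgG RIP, on the Arid5a effect in medium and on this difference alike. The median was -0.38 over the 32 genes, -0.053 over all genes and -1.21 over the silent receptor genes.

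The libraries not yet given show how the other genes varied. Irf9 had 7.17, 9.50, 19.6 and 16.8 CPM in Arid5a medium, against 11.04, 3.37, 13.0 and 9.29 in IgG medium. Stat2 had 25.4, 26.9, 17.2 and 18.1 CPM in Arid5a medium, against 22.5, 41.6, 18.8 and 20.5 in IgG medium. Both overlapped between the antibodies in medium. Bst2 had 5.21, 14.5, 6.02 and 7.51 CPM in Arid5a medium, against 13.2, 5.62, 15.9 and 8.65 in IgG medium, which also overlapped. Irf7 had 0.977, 1.24, 3.31 and 1.04 CPM in Arid5a medium, and Ifit1 10.3, 2.28, 4.79 and 6.80 CPM in Arid5a IL-17. Irf1 had 21.8, 22.1 and 18.2 CPM in IgG IL-17, against 18.3, 30.3, 11.2 and 9.93 in IgG medium, and overlapped. Xaf1 had 8.99, 11.2 and 7.18 CPM in IgG IL-17, against 6.84, 11.2, 8.31 and 6.41 in IgG medium. Trim25 had 21.6, 20.1, 22.6 and 30.6 CPM in Arid5a IL-17, against 21.2, 24.8, 26.8 and 26.4 in Arid5a medium. Both Xaf1 and Trim25 overlapped between the treatments in these libraries. In IgG IL-17, Isg15 had 15.2, 10.5 and 19.6 CPM and Samhd1 186, 152 and 203 CPM. Cxcl10 had 3, 0, 5 and 2 counts in Arid5a IL-17, 0, 0, 3 and 1 in Arid5a medium, 2, 0 and 0 in IgG IL-17 and 0, 0, 0 and 3 in IgG medium, too few for a comparison.

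A further 105 genes of the pathway, none of them among the 34, were followed by role, and 89 passed the filter. The interferons themselves were hardly counted. Ifnb1 had at most 8 counts in a library, Ifng at most 18, Ifna1 and Ifna2 at most 19, Ifnl3 at most 3, and Ifnl2 rounded to 0 in every library. Of the 9 ligands 4 passed the filter. By mean FPKM, Ifna2 (5.95) was above the 95th percentile of silent genes (5.54 FPKM). The other ligands were below it, with Ifna1 (5.09) and Ifnk (4.87) the highest of them. The 9 receptors and kinases varied in level. Ifngr1 had a mean of 42.3 FPKM, Ifngr2 35.9, Jak1 34.8, Ifnar2 24.1, Il10rb 9.22, Jak2 9.19 and Ifnar1 6.63 FPKM. Tyk2 (3.01 FPKM) and the interferon lambda chain Ifnlr1 (1.90 FPKM) were below the 95th percentile of silent genes. Of the 105 genes 31 exceeded the 99th percentile of silent genes, among them the membrane protein Ifitm3 (304 FPKM) and the class I light chain B2m (264 FPKM).

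With IL-17, 3 of the 89 were called higher in the Arid5a RIP, where 4.84% of all genes were called higher, and these were both chains of the interferon gamma receptor and Shisa5, an endoplasmic reticulum protein of p53-dependent cell death. Ifngr1 had 113, 107, 96.1 and 79.3 CPM with IL-17, against 73.3, 63.2, 58.7 and 63.2 in medium. Ifngr2 had 90.2, 100.5, 92.7 and 65.1 CPM with IL-17, against 65.2, 49.6, 49.1 and 52.6 in medium. Shisa5 had 40.0, 41.9, 35.0 and 32.3 CPM with IL-17, against 18.9, 10.7, 20.2 and 23.6 in medium. In Ifngr1 and Shisa5 the groups did not overlap, and in Ifngr2 the lowest IL-17 library and the highest medium library were level. The log2 folds were 0.61 ± 0.17 for Ifngr1, 0.69 ± 0.19 for Ifngr2 and 1.01 ± 0.28 for Shisa5, with edgeR adjusted p of 0.0278, 0.0220 and 0.0245. None of the 3 was called without Arid5a IL-17 1, 2 or 3 or without Arid5a medium 2 or 3, each left out in turn (edgeR adjusted p of 0.0586 to 0.139). Without Arid5a medium 1 Shisa5 was not called (0.0627), and without Arid5a medium 4 neither receptor chain was (0.0785 for Ifngr1 and 0.0681 for Ifngr2).

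These receptor folds stand beside the median of 0.30 for well-expressed genes. With TMM factors from well-expressed genes alone they were 0.30, 0.37 and 0.70, and none was called (edgeR adjusted p = 0.248, 0.194 and 0.154). In the IgG RIP the same genes had log2 folds of -0.25 ± 0.19, 0.14 ± 0.20 and -0.27 ± 0.30, none called. The interaction of antibody and treatment was 0.87 ± 0.26 for Ifngr1 (edgeR adjusted p = 0.0863), 0.55 ± 0.28 for Ifngr2 and 1.28 ± 0.41 for Shisa5, none called with all libraries by edgeR. Limma voom called the Ifngr1 interaction (0.863, adjusted p = 0.0189), where voom called 9.27% of all genes. EdgeR called it without Arid5a IL-17 4 (0.952, adjusted p = 0.0274) and without IgG IL-17 3 (1.1, adjusted p = 0.0333). In those fits 4.06% and 1.14% of all genes were called. No other alternative called it. Jak2 (0.61, edgeR adjusted p = 0.0673) and Ifnar2 (0.76, adjusted p = 0.0895) had folds of like size in the Arid5a RIP without a call in the main fit. They were chosen after their values were seen. Some alternatives called both and others neither. Limma voom called both (adjusted p = 0.000961 for Jak2 and 0.00201 for Ifnar2), where voom called 41.7% of all genes.

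**Figure D5:**
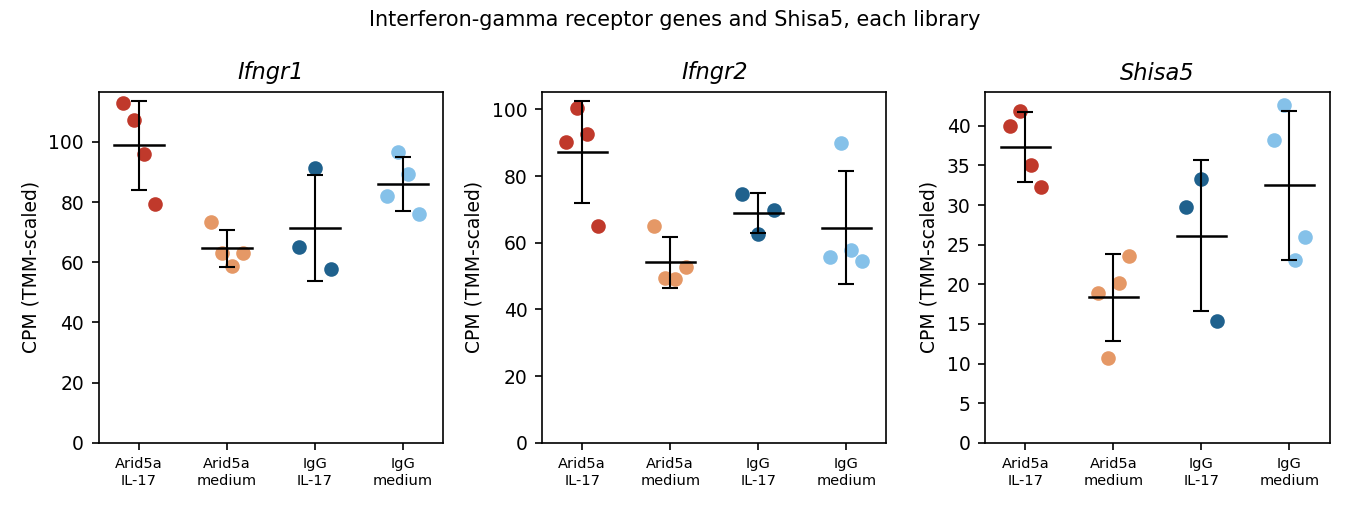
TMM-scaled CPM of Ifngr1, Ifngr2 and Shisa5 in each library of the 4 groups; points are libraries, and bars are the mean ± SD. The Arid5a IL-17 libraries lie above all Arid5a medium libraries for Ifngr1 and Shisa5, 1 library of each group is level for Ifngr2, and the IgG groups overlap for all 3 genes.

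No pathway gene was called by edgeR with all libraries in the other comparisons, including the IgG RIP where Gbp2 and Gbp3 were. DESeq2 called Gbp6 and H2-D1 higher with IL-17 there, 2 of 89, where it called 1.79% of all genes. Gbp6 and Gbp4, which lie on chromosome 5, were not called there by edgeR. Gbp6 had 12.9, 22.4 and 15.8 CPM in IgG IL-17, against 1.99, 0, 4.70 and 7.37 in IgG medium, and its groups did not overlap (log2 fold 2.12 ± 0.59, edgeR adjusted p = 0.103). Gbp4 ran the other way, with 1.93, 0.350 and 0 CPM in IgG IL-17, against 2.65, 27.0, 1.81 and 2.56 in IgG medium (log2 fold -2.97 ± 0.98, adjusted p = 0.190). H2-D1, a class I heavy chain, had 20.6, 11.2 and 39.7 CPM with IL-17, against 8.83, 0, 6.14 and 13.8 in medium (log2 fold 1.56 ± 0.48, adjusted p = 0.151). Cxcl9, a chemokine induced by interferon gamma, had 4.28, 4.90 and 0 CPM with IL-17, against 0.441, 1.12, 0 and 0 in medium, and was not called there. In the Arid5a RIP it had 0.419, 0.912, 1.34 and 1.42 CPM with IL-17, against 3.58, 0.413, 5.12 and 3.11 in medium. For the difference of enrichment, limma voom called Cxcl9 lower (-4.81, adjusted p = 0.0414), where voom called 9.27% of all genes. EdgeR without IgG medium 2 and IgG IL-17 4 did so too (-5.99, adjusted p = 0.0411), where 1.62% of all genes were called. Ciita, the class II transactivator, had 1.47, 2.51, 4.40 and 9.06 CPM in Arid5a IL-17, against 11.8, 13.3 and 10.1 in IgG IL-17, with a log2 fold of -1.44 ± 0.54 (edgeR adjusted p = 0.416). Limma voom called Ciita lower there (-1.92, adjusted p = 0.0121), beside 2.69% of all genes. With IL-17 against medium in the Arid5a RIP it was called lower by voom (-1.7) and by edgeR without Arid5a IL-17 4 (-1.88), where 41.7% and 12.8% of all genes were called. The same 2 fits called it lower for the difference of enrichment (-2.31 and -2.57), where 9.27% and 4.06% of all genes were called. Slfn5 had 14.9, 15.3, 14.2 and 45.9 CPM in Arid5a IL-17, against 48.2, 33.9, 31.9 and 47.1 in Arid5a medium, and was not called (log2 fold -0.85 ± 0.33, edgeR adjusted p = 0.117). Without Arid5a IL-17 4 its log2 fold was -1.45 and it was called by edgeR (adjusted p = 0.0026), where 12.8% of all genes were called. Limma voom called Slfn5 with all libraries (-1.31), where voom called 41.7% of all genes. Ifi27l2a had 21, 11, 13 and 1 counts in Arid5a IL-17, 14, 13, 3 and 5 in Arid5a medium, 2, 1 and 0 in IgG IL-17 and 7, 2, 4 and 8 in IgG medium libraries, and was not called.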

How the data were processed

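RIP-seq libraries of ST2 cells were analysed from 2 tables that the authors deposited, one of expected counts per gene and one of FPKM. Per the submitters' processing notes, the tools were R 4.3.0, DESeq2 1.36.0, RSEM 1.3.1 and STAR 2.7.9, and the build was mm10. Their roles, the gene models and the strand option are not given in the sources used here. The expected counts, as deposited, were taken as not normalised, since 2.66% to 10.3% of values in a library were not whole (tolerance 0.001) and library totals differed. The deposited FPKM served for levels per length and for an alternative test.

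The rounded expected counts went into edgeR 4.0.16 (R 4.3.3) with filterByExpr by group, TMM factors, and a robust quasi-likelihood fit to the 4 group means over 15 libraries, with Benjamini-Hochberg adjustment over the 17835 genes tested. Every adjusted p is from this fit unless DESeq2, limma, another setting or a library left out is named with it. Replicates varied with a common biological coefficient of variation of 0.341. With totals of 939139 to 5713913 counts, a gene at a few counts per library has wide counting error. The procedure was tested on simulated data. Replicate numbers in the titles did not pair the libraries (r of same-numbered deviations -0.126 to 0.195 over 21 pairs).

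The 34 genes, the pathway and marker lists and the alternatives were chosen with earlier results of these data known. Values in every library are given for called genes, the 3 of smallest p per comparison, the 4 of highest FPKM, and Irf1, Stat2, Irf9, Isg15, Gbp2, Gbp7, Cxcl10 and Bst2; other genes are given by level or range. Pathway genes called or among the 3 of smallest p in a comparison are given for the libraries of at least 1 comparison, not always for all 15 libraries. Other pathway genes are given by level. Positions and promoters come from RefSeq tables of GRCm38.p6, the assembly mm10 names; all 34 symbols matched. Alternatives were upper-quartile factors, library totals, TMM factors from well-expressed genes, DESeq2 1.42.0, limma 3.58.1 (voom with quality weights, log2(FPKM + 1) and log2(FPKM + 0.1)), no filter, a stricter filter (every library of a group at 10 counts or more), a fit to only the libraries compared, the silent-gene CPM as a covariate, leaving out IgG IL-17 4 together with IgG medium 2, the replicate block, and each library left out.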

Additional observations from a re-analysis of the deposited data

Results flagged for a closer look

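In groups of 4 libraries, 12 of 102 sets of values had 1 library far from the other 3 by Dixon's test. The test's rate of about 1 in 20 is for independent, normally spread values. These sets hold low counts, some at 0, and sums that share genes with other sets. The 12 of 102 therefore cannot be set against that rate. Irf7 was low in Arid5a IL-17 1 (0.629 CPM, the others 1.53 to 1.70) and high in Arid5a medium 3 (3.31 CPM, the others 0.977 to 1.24). Ifit1 had 2.43 CPM in IgG medium 1 and 0 in the other 3, and Cxcl10 had 0.961 CPM in IgG medium 4 and 0 in the other 3. In IgG medium 2, the shallowest library, Stat2 stood at 41.6 CPM (the others 18.8 to 22.5), Ifngr2 at 89.8 CPM (54.4 to 57.8) and Gbp4 at 27.0 CPM (1.81 to 2.65). In Arid5a IL-17 4, Slfn5 stood at 45.9 CPM (the others 14.2 to 15.3), Gbp4 at 8.78 CPM (2.49 to 2.73) and the silent receptor genes at a sum of 4060 CPM (1410 to 1810). The silent genes summed to 3090 CPM in IgG medium 4 (the others 1990 to 2160). The 4 transcription factors summed to 56.1 CPM in Arid5a IL-17 2 (the others 50.5 to 51.2).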

How the results depend on the processing

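Low counts, 3 IgG IL-17 libraries and the spread within IgG groups limit these results. For IL-17 against medium in the IgG RIP, the count of 2 genes called among the 34 became 0 with DESeq2. DESeq2 gave no adjusted p to 14 of the 32 genes, Gbp2 and Gbp3 included. Their log2 folds there were 3.90 and 3.64, with unadjusted DESeq2 p of 4.71e-07 and 8.3e-06, so DESeq2 made no decision on them. With limma voom the count was 0 (adjusted p = 0.126 for Gbp2 and 0.151 for Gbp3), where voom called 0.303% of all genes. It was 0 with only the libraries compared, where 0.105% of all genes were called. There Gbp3 did not pass the filter and Gbp2 had an adjusted p of 0.208 by edgeR. It became 1, Gbp2, with log2(FPKM + 1) (0.247% of all genes called), log2(FPKM + 0.1) (0.219%) and the silent-gene covariate (0.392%). Without both IgG IL-17 4 and IgG medium 2 it was 1, Gbp3 (0.399%). With the replicate block (0.370%) it was 1, Gbp2, at a log2 fold of 3.79 (edgeR adjusted p = 0.0312). The block changed no other count of calls. Leaving out 1 library gave 1 to 3, where 0.230% to 1.45% of all genes were called. The 3 were Gbp2, Gbp3 and Ifit1 without IgG medium 1, the fit that called 1.45% of all genes. DESeq2 called 2 of 89 pathway genes higher, Gbp6 and H2-D1, and 1.79% of all genes. For the difference of enrichment, calls among the 32 genes were 2 with DESeq2 (2.27% of all genes) and 2 with limma voom (9.27%). With a library left out they were 0 to 1 (1, Gbp2, without Arid5a IL-17 4, where 4.06% of all genes were called). Pathway calls were 6 with voom and 2 without IgG IL-17 4 and IgG medium 2 (1.62% of all genes). With a library left out pathway calls were 0 to 3, the 3 also without Arid5a IL-17 4. The median over the 32 genes was -0.81 with log2(FPKM + 0.1). In medium the median was 0.69 with log2(FPKM + 0.1), and 0 to 1 of the 32 genes was called with a library left out. The 1 was Ifit1 without IgG medium 1, where 1.98% of all genes were called. In the Arid5a RIP, limma voom called 2 of the 32 genes and 41.7% of all genes. Pathway calls there were 0 with upper-quartile factors (1.80% of all genes called), library totals (1.69%) and TMM from well-expressed genes (1.82%). They were also 0 with log2(FPKM + 1) (0.555%), log2(FPKM + 0.1) (0.421%) and the silent-gene covariate (0.168%). They were 5 of 89 (5.62%) with DESeq2 and 32 of 89 (36.0%) with voom, below the 7.66% and 41.7% of all genes. They were 11 of 93 (11.8%) without those 2 libraries and 12 of 77 (15.6%) with only the libraries compared, below 13.6% and 18.9% of all genes. They were 0 to 9 with a library left out, the 9 of 89 (10.1%) being without Arid5a IL-17 4, where 12.8% of all genes were called. With IL-17, voom called 1 pathway gene, Ciita, and 2.69% of all genes in the Arid5a against IgG comparison. The cause of these changes was not tested. No called gene turned direction under any alternative. The median log2 fold of all genes was -0.41 with TMM factors from well-expressed genes and -0.12 with the main factors in the Arid5a RIP, 0.22 and 0.042 for Arid5a against IgG in medium, -0.16 and -0.010 for that comparison with IL-17, and -0.38 and -0.053 for the difference of enrichment.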
